A study of Mus musculus with 22 samples.

Results

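Bipolar cells of the mouse retina were compared with the photoreceptors that synapse onto them, at postnatal day 13 (P13). The comparison set the 2 libraries labelled Bipolars at P13 against the mean of the 2 Rods and the 2 Cones libraries of the same age, so that 6 of the 22 libraries of the series were compared. The spread between replicates was estimated over all 22. All genes were described: 13405 of the 13785 named genes in the table reached a log2 value of 0 in both libraries of at least 1 group and were tested. The series profiled sorted retinal cells by RNA sequencing, and besides P13 it holds rods, cones and bipolars at P7 and P30 and, at P13, separate libraries of rod bipolars and cone bipolars. The sample labels give the retina as tissue, the age and the cell type, which are the same for the libraries of a group, and the sources used here give no strain, genotype, treatment or sorting marker. Whether replicate libraries stem from different animals is not said either, and p-values measure only the spread between them, which may be technical.

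Photoreceptors hold a second-messenger cascade of opsin, transducin, phosphodiesterase and cyclic nucleotide-gated channels in their outer segments, and release glutamate at ribbon synapses in the dark. ON bipolar cells read that glutamate through the metabotropic receptor mGluR6, whose G protein Go closes the cation channel TRPM1, while OFF bipolar cells use ionotropic kainate and AMPA receptors. Rod bipolars are ON cells driven mainly by rods, and cone bipolars comprise both ON and OFF types. At P13 the mouse eye is close to opening and the synapses of the outer and inner plexiform layers are being completed.

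Values are CPM, read counts scaled to the size of the library, taken from the deposited table; replicate 1 is given before replicate 2. Differences are on its log2 scale, given ± SE. A gene was called at an adjusted p under 0.05 (limma, Benjamini-Hochberg over all genes tested) and a log2 difference of at least 1. The 2 bipolar libraries held 16.98 and 17.05 megareads (Mreads), the rod libraries 31.4 and 48.5 and the cone libraries 49.1 and 44.6, within 14.4 to 54.4 Mreads for the series. The 2 rod libraries differed most from each other, with a median SD of 0.49 log2 units per gene, beside 0.28 in cones and 0.18 in bipolars. Mitochondrial transcripts took 3.97 to 4.47% of reads in bipolars, 6.82 to 7.02% in rods and 17.4 to 17.5% in cones. Summed markers of Müller glia ran from 995 to 1325 CPM in bipolars, from 251 to 387 in cones and from 193 to 212 in rods. Amacrine markers summed to 141 CPM in bipolar replicate 1 and 448 in replicate 2, beside 8.95 to 82.9 in cones and 21.4 to 23.8 in rods.

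The markers of the labels held. Grm6, which encodes mGluR6 (chr11:50850685-50866208 in GRCm38), stood at 1267 and 1115 CPM in bipolars and 20.1 and 23.1 in cones, and had no reads in rods. Isl1, a LIM homeodomain factor of ON bipolars (chr13:116298281-116309689), stood at 819 and 865 CPM in bipolars, 0.0703 and 0.0252 in rods and 2.2 and 14.1 in cones. Sag, the arrestin of rods (chr1:87803680-87845158), stood at 54.1 and 61.4 CPM in bipolars against 8624 and 12166 in rods and 5398 and 6175 in cones. Thus the bipolar libraries lay above all 4 photoreceptor libraries for Grm6 and Isl1 and below all 4 for Sag. The 14 rod genes listed summed to 469 to 534 CPM in bipolars, so that photoreceptor transcripts were present there at a low level. In bulk samples such as these, fewer cells of a type and less RNA per cell cannot be told apart.

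Bipolars differed from the mean of rods and cones in 4474 genes, 33.4% of those tested. Of these 2757 were higher in bipolars (20.6%) and 1717 were lower (12.8%). The genes that were higher differed by a median of 5.49 log2 units and those that were lower by 1.85, and 809 of the higher genes had no reads in rods, 421 none in cones and 234 none in either. The number of higher genes fell to 1775 without bipolar replicate 1 and to 1619 without replicate 2. The split depends on scaling: with plain library totals in place of the authors' scaling the median over all genes moved by 0.48, from 0.18 to 0.66, and 3851 genes were higher and 1044 lower. Differences below are to be read relative to that median of 0.18.

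Because rods and cones differ from each other, each was also compared with bipolars singly; the comparisons share the bipolar libraries. Against rods 5397 genes were called (40.3%; 25.2% higher and 15.0% lower), and against cones 2974 (22.2%; 11.7% higher and 10.5% lower). Called the same way against both were 1168 genes higher in bipolars (8.71%) and 978 lower (7.3%), while 72 genes (0.537%) were higher than one photoreceptor type and lower than the other. The balance of higher and lower genes in these counts turned with the bipolar libraries: against both photoreceptors 690 were higher and 911 lower without bipolar replicate 1, and 621 and 711 without replicate 2. Against cones, where 1564 were higher and 1410 lower, the counts were 935 and 1224 without replicate 1, 811 and 972 without replicate 2, and 930 and 1029 with the 6 libraries fitted alone. With plain library totals 2473 were higher and 891 lower against cones, and 4380 and 1247 against rods. The bipolar libraries lay above all 4 photoreceptor libraries in 3625 genes (27.0%) and below all 4 in 2703 (20.2%). Among the 2757 genes higher than the mean, 1309 were called against rods only and 224 against cones only.

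**Figure D1:**
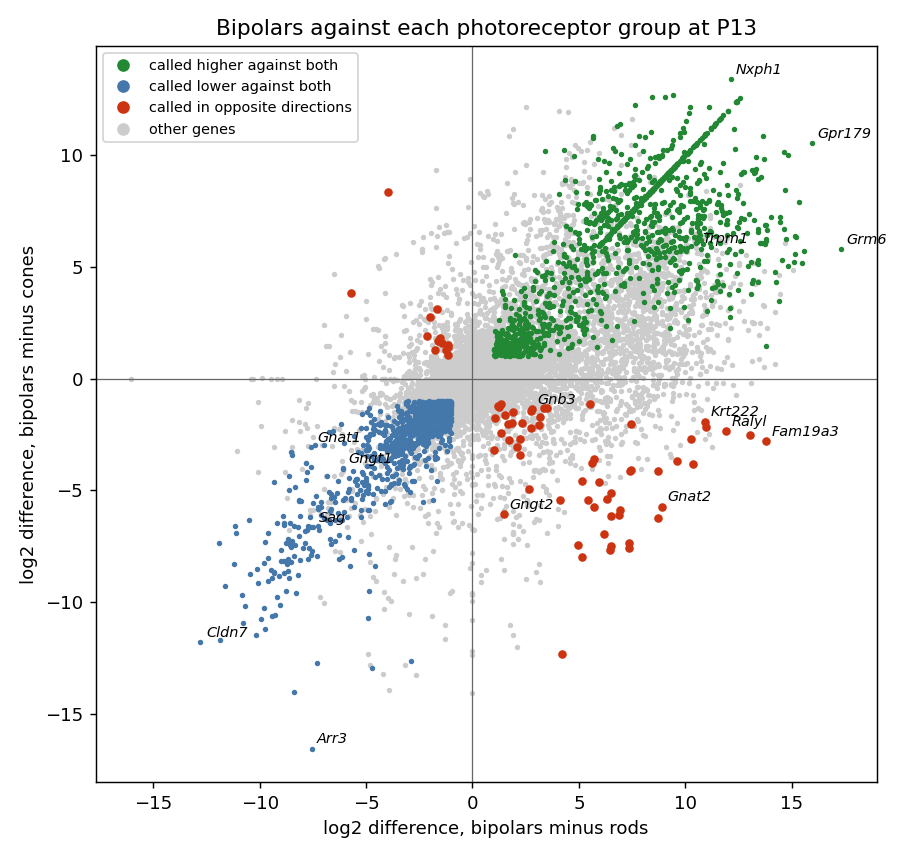
Each point is 1 of the 13405 genes, with the log2 difference of bipolars from rods on the x axis and from cones on the y axis. Green genes were called higher against both (1168), blue lower against both (978) and red in opposite directions (72); Gngt2, Gnat2, Gnb3 and Fam19a3 lie at the lower right, higher than in rods and lower than in cones.

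The receptor cascade of ON bipolars was largely higher in bipolars. Of 13 genes tested, 9 were higher in bipolars and 3 lower, beside 20.6% and 12.8% over all genes. The median log2 difference was 6.74 beside 0.18 over all genes (5.47 and 0.09 with genes without reads set to 3 counts). Called against both rods and cones were 7 higher and 3 lower, beside 8.71% and 7.3% over all genes. Against cones, Grm6 was higher by 5.78 ± 0.83 (adjusted p = 9.47e-05), and against rods, where it had no reads, it was at least 27076-fold higher. Gpr179, the orphan receptor that anchors RGS proteins at the dendritic tip, stood at 491 and 427 CPM in bipolars, had no reads in rods and stood at 0 and 13.2 in cones. It was at least 10442-fold higher than in rods. Nyx, whose protein nyctalopin holds TRPM1 at the membrane, stood at 40.4 and 31.4 CPM in bipolars and 0 and 4.33 in rods, and had no reads in cones. Trpm1 itself (chr7:64153835-64269775) stood at 525 and 471 CPM in bipolars, 3.51 and 0.0252 in rods and 4.34 and 17.1 in cones. The Trpm1 libraries did not overlap between bipolars and photoreceptors, and the difference was 8.19 ± 2.26 (adjusted p = 0.00907). Its rod and cone libraries ranged from 0.0252 to 17.1 CPM, and the call was lost without either bipolar library.

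The G protein subunits divided by cell type. Gnao1, the alpha subunit of Go, was at 1189.7 and 1472 CPM in bipolars, 38 and 25.5 in rods and 151 and 174 in cones, a difference of 4.22 ± 0.23 from their mean (adjusted p = 2.07e-09). Per kilobase of exon, bipolars held 120.41 CPM of Gnao1, 26 of the cone transducin Gnat2 and 8.57 of the rod transducin Gnat1. Gng13, the gamma subunit that pairs with Go in ON bipolars, stood at 4.17 and 5.67 CPM in bipolars and had no reads in rods and 0.278 and 0.28 CPM in cones. Among beta subunits, Gnb1 of rods stood at 161 and 145 CPM in bipolars, 5567 and 5720.5 in rods and 239.86 and 213 in cones. Gnb3, which serves both cones and ON bipolars, lay between the photoreceptors, at 703 and 725 CPM in bipolars, 85 and 122 in rods and 1755 and 1952 in cones. It was higher than in rods by 2.81 ± 0.22 and lower than in cones (-1.37), so that its difference from the mean, 0.72 ± 0.19, was not called. The deactivating RGS proteins also divided. Rgs11, which acts on Go, stood at 202 and 157 CPM in bipolars, 0.141 and 0.528 in rods and 3.2 and 6.5 in cones (log2 difference 7.30 ± 1.28), whereas Rgs9, which acts on transducin, was lower (-7.63 ± 0.79). Rgs7, the partner of Rgs11, was at 94.8 and 106 CPM in bipolars and 102 and 133 in cones, with 0.316 and 0 in rods.

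**Figure D2:**
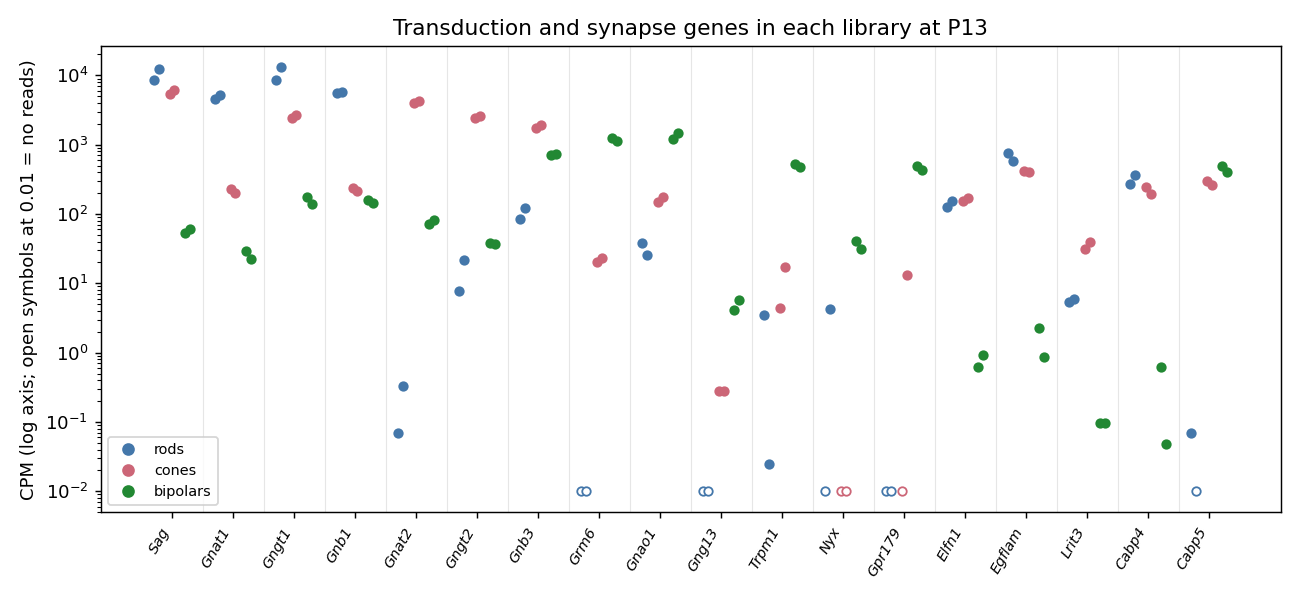
CPM of 18 transduction and synapse genes (log axis) in each library at P13; each point is 1 library, coloured by cell type, and open symbols at 0.01 mark libraries with no reads. Rod genes (Sag, Gnat1, Gngt1, Gnb1) peak in rods, Gnat2 and Gngt2 in cones, and Grm6, Gnao1, Trpm1, Nyx and Gpr179 in bipolars, while Elfn1, Egflam, Lrit3 and Cabp4 are lowest in bipolars.

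Genes of OFF bipolars were present in the same libraries. The series design speaks of ON-bipolar cells, but 9 of 10 OFF genes tested were higher in bipolars than in the mean of photoreceptors. Over all genes the share was 20.6%, and the OFF median was 9.12 log2 units (6.43 with genes without reads at 3 counts). Only 5 of the 9 were called when the 6 libraries were fitted alone. Against both rods and cones 6 of the 10 were called higher, beside 8.71% over all genes. Nxph1, a neurexophilin, stood at 87.7 and 70.4 CPM in bipolars, 0.0351 and 0 in rods and at no reads in cones, so that bipolars were at least 2169.7-fold above cones. Tacr3, a tachykinin receptor of OFF cone bipolars, stood at 73.5 and 64.4 CPM in bipolars, 0 and 0.126 in rods and 0 and 1.33 in cones. Fezf1, a zinc finger factor, is not among the 10 OFF genes and was named for its large rise in these data. It stood at 49.3 and 39.8 CPM in bipolars and had no reads in any rod or cone library. This puts bipolars at least 1013-fold above rods and at least 1223-fold above cones. Fezf2 stood at 69.4 and 66.3 CPM in bipolars, 0 and 5.94 in rods and 0 and 3.06 in cones, a call that was lost without either bipolar library and without rod replicate 1 or cone replicate 1.

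The separately sorted bipolar classes did not share these levels. At P13 Nxph1 averaged 1.19 ± 1.68 CPM (SD, n = 2) in rod bipolars and 2.92 ± 0.824 in cone bipolars, and Tacr3 averaged 1.6 ± 0.482 and 4.13 ± 3.08. Fezf1 had no reads in rod bipolars and 1.11 ± 0.579 CPM in cone bipolars. The Bipolars libraries therefore lay above both for these genes. Further genes of the OFF list, which does not hold Fezf1, were also high in a second bipolar group. The kainate receptor Grik1 averaged 217 ± 1.9 CPM in bipolars, 238 ± 4.97 in rod bipolars and 129 ± 18 in cone bipolars. The LIM factor Lhx3 averaged 95.3 ± 1.45, 2.68 ± 2.56 and 82.8 ± 13.2 in the same order. The ON genes Grm6 and Trpm1 were lowest in the Bipolars libraries. Grm6 averaged 1191 ± 107 CPM in bipolars, 3370.3 ± 229 in rod bipolars and 1570.3 ± 12 in cone bipolars, and Trpm1 498 ± 38.1, 4237 ± 465 and 617 ± 84.2. Nyx did not share this order, at 35.9 ± 6.42, 17.4 ± 10.2 and 44.3 ± 9.01. These differences between bipolar groups were not tested, and the group is called bipolars here as in its sample labels.

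**Figure D3:**
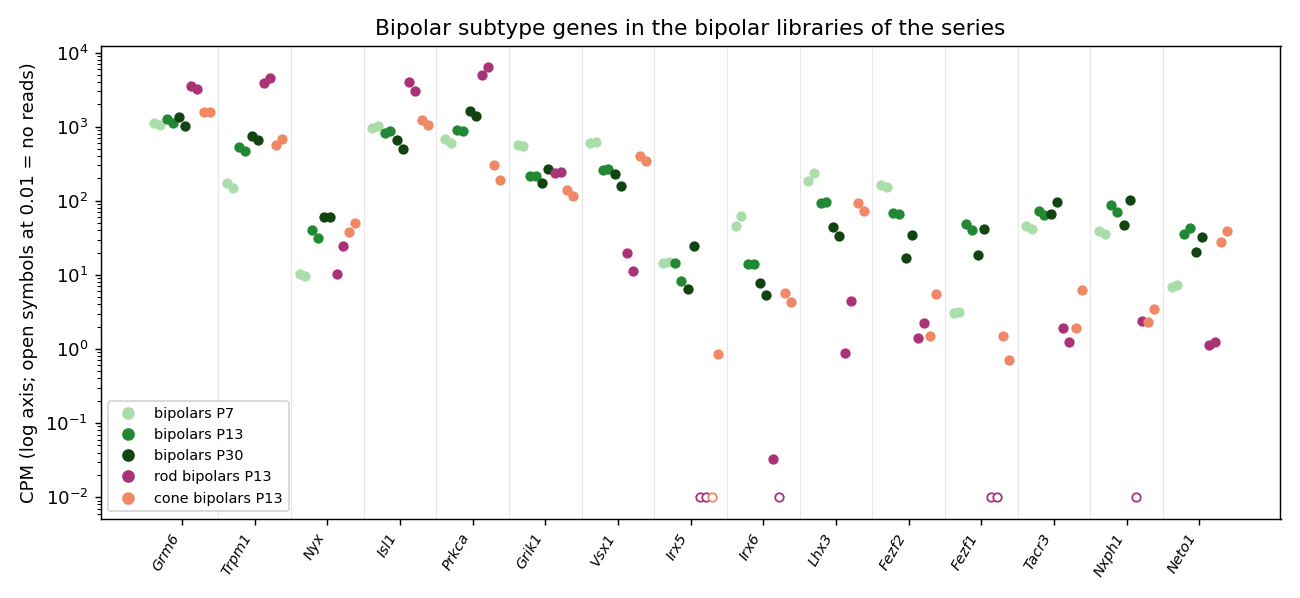
CPM of 15 bipolar genes (log axis) in the 10 bipolar libraries of the series, each point 1 library, coloured by group; open symbols at 0.01 mark no reads. Nxph1, Tacr3, Fezf1, Fezf2 and Irx5 are higher in the Bipolars libraries at P13 than in rod or cone bipolars, whereas Grm6 and Trpm1 are highest in rod bipolars.

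Rod bipolar and cone bipolar genes were both higher in bipolars: 9 of 9 rod bipolar genes and 14 of 15 cone bipolar genes, beside 20.6% over all genes. Their medians were 6.78 and 7.77 (4.79 and 6.47 with genes without reads at 3 counts). Prkca, the protein kinase C of rod bipolars, was at 903 and 880.28 CPM in bipolars and also at 273 and 302 in rods, with 8.74 and 33.8 in cones. It was called against cones (5.70 ± 0.68) but not against rods (1.63 ± 0.68, adjusted p = 0.0594). Scgn, the calcium-binding secretagogin of cone bipolars, stood at 579.96 and 508 CPM in bipolars, 0 and 0.0252 in rods and 11.4 and 19 in cones. Vsx1, a homeodomain factor of cone bipolars, stood at 263 and 265 CPM against at most 1.58 in any photoreceptor library.

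Transcription factors that build bipolar cells were nearly all higher. Of 23 tested, 20 were higher and 1 lower, beside 20.6% and 12.8% over all genes. Their median was 8.44 (6.26 with genes without reads at 3 counts). Called against both rods and cones were 14 higher and 1 lower, beside 8.71% and 7.3% over all genes. Neurod4, a bHLH factor of bipolar specification, stood at 1534 and 1514 CPM in bipolars, beside 2.88 and 0 in rods and 32.7 and 52.5 in cones (9.28 ± 1.43, adjusted p = 1.12e-04). Bhlhe23, needed for rod bipolar maturation, stood at 452 and 368 CPM with 0 and 0.0252 in rods and 1.07 and 1.3 in cones. The 1 lower gene was Neurod1, a bHLH factor of photoreceptors, at 623 and 590.2 CPM in bipolars against 4446 and 4633 in rods and 1676 and 1597 in cones (-2.17 ± 0.17). Crx and Otx2, paired-type homeodomain factors of both lineages, differed from each other. Crx stood at 349 and 367 CPM in bipolars, 1883 and 2061 in rods and 2249 and 2028 in cones, lower in bipolars (-2.52 ± 0.12, adjusted p = 4.30e-10). Otx2 stood at 1419 and 1385 CPM in bipolars, 1449.9 and 1556 in rods and 752 and 577 in cones. It was not called against rods (-0.10 ± 0.15) and was higher than in cones by 1.09 ± 0.15.

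Phototransduction genes were lower in bipolars as a group. All 14 rod genes tested were lower, beside 12.8% over all genes, 12 of them against both rods and cones, with a median of -5.92. Gnat1 stood at 29.7 and 22.3 CPM in bipolars, 4581 and 5181 in rods and 230.4 and 199.95 in cones (-5.31 ± 0.28, adjusted p = 1.32e-09), and Gngt1, the rod gamma subunit, at 177 and 139, 8657 and 13140.4 and 2397 and 2656 (-5.05 ± 0.29). Nrl, the leucine zipper factor that fixes rod fate, stood at 7.42 and 7.22 CPM in bipolars, 672 and 706 in rods and 35.7 and 38.4 in cones. The libraries of bipolars lay below all photoreceptor libraries for these 3 genes. Of 21 genes used by both photoreceptors, 20 were lower (median -6.39), including Pdc, which encodes phosducin, at 30.1 and 23.9 CPM against 10918 and 14546 in rods and 2197 and 2524 in cones. Of 31 outer segment and cilium genes 23 were lower and 1 higher (median -2.63). Impg2, a proteoglycan of the matrix around outer segments, was lower (-7.86 ± 0.40), as was Rp1, a microtubule protein of the axoneme (-7.81 ± 0.36).

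Cone genes gave a mixed picture against rods. Of 14 tested, 9 were lower and 1 higher against the mean (median -3.44), 13 were lower against cones, and 7 were higher than in rods. Over all genes the shares were 12.8% lower and 20.6% higher against the mean, 10.5% lower against cones and 25.2% higher than in rods. Pde6h, the cone phosphodiesterase inhibitory subunit, stood at 0.485 and 0.824 CPM in bipolars, 5.69 and 48.8 in rods and 4409 and 5902 in cones. Opn1sw, the short-wavelength opsin, stood at 0.436 and 2.81 CPM in bipolars, 5.59 and 12.6 in rods and 7523 and 6941 in cones. Gnat2 was the 1 gene called higher than the mean, at 72.8 and 82.8 CPM in bipolars, 0.0703 and 0.327 in rods and 4038 and 4239.7 in cones. That call, 1.59 ± 0.47, was lost without either bipolar library, and against cones Gnat2 was lower (-5.74 ± 0.55). The cone gamma subunit Gngt2, at 37.6 and 36.4 CPM in bipolars, 7.84 and 22 in rods and 2445 and 2558 in cones, was likewise higher than in rods (1.49 ± 0.41) and lower than in cones (-6.08 ± 0.41).

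CRX and OTX2 bind the homeodomain motif TAATCC. It was searched on both strands, as TAATCC or GGATTA, in the 250 bases before each start site of the 10406 tested genes that matched the RefSeq promoter table. It was present in 6.53% of all these genes, in 8.74% of the 1350 genes lower in bipolars, in 10.2% of the 762 lower than in both rods and cones, and in 5.78% of the 2094 higher in bipolars. By list, 5 of 11 rod genes held it, 9 of 17 shared photoreceptor genes, 2 of 10 cone genes, 3 of 27 outer segment and cilium genes, 2 of 10 genes of the mGluR6 list and 2 of 16 bipolar transcription factors. Among photoreceptor lists the cone share thus equalled that of the mGluR6 list. Another motif, TGCTGA, part of the MAF site bound by NRL, was searched in the same windows. It was in 15.4% of all genes, 16.5% of those lower in bipolars and 17.4% of those higher. Of genes called against both rods and cones, 17.8% of the lower and 19.2% of the higher held it. TGCTGA was thus rarer in lower than in higher genes. By list, 2 of 11 rod, 5 of 17 shared and 1 of 10 cone genes held it. So did 4 of 27 outer segment, 1 of 10 mGluR6 and 6 of 16 bipolar transcription factor genes. The median GC content of these windows was 59.6% over all genes and 59.2% in the genes lower than in both rods and cones. It was 49.6% in the rod list, 54.2% in the shared list, 48.0% in the cone list and 52.8% in the mGluR6 list. The part of GC content in the counts was not tested. A match is a run of letters, not a bound site.

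The 100 bases before the start of 6 of these genes show where the motif lies; TAATCC or GGATTA is in capitals and each sequence runs 5′ to 3′ on the gene's strand (RefSeq, GRCm38.p6). Sag (chr1:87803580-87803679, plus strand), Gngt1 (chr6:3993908-3994007, plus strand), Aipl1 (chr11:72037510-72037609, minus strand) and Rbp3 (chr14:33953903-33954002, plus strand) were lower in bipolars. Trpm1 (chr7:64153735-64153834, plus strand, 1 of 2 start sites listed) and Cabp5 (chr7:13398055-13398154, plus strand) were higher, and hold the same letters.
Sag: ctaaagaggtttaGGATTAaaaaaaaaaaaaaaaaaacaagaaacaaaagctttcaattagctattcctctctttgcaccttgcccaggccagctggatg
Gngt1: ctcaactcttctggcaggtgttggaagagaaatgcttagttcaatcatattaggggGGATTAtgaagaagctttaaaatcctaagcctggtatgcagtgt
Aipl1: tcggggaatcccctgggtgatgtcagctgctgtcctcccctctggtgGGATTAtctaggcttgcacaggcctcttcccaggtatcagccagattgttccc
Rbp3: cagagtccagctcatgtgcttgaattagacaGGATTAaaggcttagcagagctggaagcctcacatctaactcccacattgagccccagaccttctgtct
Trpm1: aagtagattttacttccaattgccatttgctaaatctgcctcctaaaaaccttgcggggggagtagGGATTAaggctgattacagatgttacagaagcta
Cabp5: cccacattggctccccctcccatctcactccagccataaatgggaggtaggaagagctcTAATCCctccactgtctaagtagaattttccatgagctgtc
Aipl1, a chaperone of phosphodiesterase, differed in bipolars by -9.13 ± 0.24 on the log2 scale, and Rbp3, the retinoid-binding protein between photoreceptors and pigment epithelium, by -4.70 ± 0.22.

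At the synapse between the cells, the photoreceptor side was low in bipolars. Of 13 genes of the photoreceptor terminal and cleft, 8 were lower and none higher, beside 12.8% and 20.6% over all genes. Their median was -1.45. Elfn1, the adhesion protein of photoreceptor terminals that binds mGluR6, stood at 0.63 and 0.921 CPM in bipolars, 128 and 155 in rods and 153 and 172 in cones (-7.62 ± 0.58). Egflam, which encodes pikachurin of the cleft, stood at 2.23 and 0.873 CPM in bipolars, 758 and 574 in rods and 411 and 405 in cones (-8.53 ± 0.33, adjusted p = 1.04e-10). Cabp4, a calcium-binding regulator of the photoreceptor calcium channel, stood at 0.63 and 0.0485 CPM in bipolars, 270.07 and 360.27 in rods and 245 and 195 in cones (-10.44 ± 0.66). For each of these 3 the bipolar libraries lay below all 4 photoreceptor libraries. Lrit3, which the mGluR6 list holds because TRPM1 placement depends on it, was on the photoreceptor side: 0.097 and 0.097 CPM in bipolars, 5.41 and 5.96 in rods and 31.3 and 39.1 in cones, lower (-7.08 ± 1.40). Kcnv2, a silent potassium channel subunit of photoreceptors, was lower (-7.15 ± 0.47), while Kcnb2 stood at 145 and 124 CPM in bipolars and at most 6.63 in any photoreceptor library.

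Both cell types build the release machinery of ribbon synapses. Of its 31 genes 11 were higher and 5 lower, the lower share being near the 12.8% over all genes, beside 20.6% higher over all (median 0.38); the higher count was 7 without bipolar replicate 1 and 6 without replicate 2. The complexins of ribbon synapses differed from each other. Cplx3 stood at 1379 and 1350.0 CPM in bipolars, 102 and 84 in rods and 914 and 816 in cones, higher than the mean by 2.27 ± 0.19 but not called against cones (0.66 ± 0.22, adjusted p = 0.0382). Cplx4 stood at 92.5 and 84.2 CPM in bipolars, 911 and 1092 in rods and 425 and 416 in cones, lower (-2.88 ± 0.24). The vesicular glutamate transporter Slc17a7 was lower (-2.04 ± 0.14), at 216 and 189 CPM in bipolars. The list of calcium channels of bipolar terminals also holds the calcium-binding proteins Cabp1 and Cabp2. Of its 11 genes tested 9 were higher (median 5.18), and 5 without bipolar replicate 2. Cacna1d, a pore subunit of L-type channels, stood at 33.5 and 24.1 CPM in bipolars, at no reads in rods and at 0.232 and 3.75 in cones, at least 655-fold higher than in rods. Of the 11 genes of this list 2 were higher against both rods and cones, beside 8.71% over all genes.

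Of the receptors for transmitters that bipolars receive, most were higher and none was called lower against the mean, beside 20.6% higher and 12.8% lower over all genes. Of 24 ionotropic glutamate receptor genes 16 were higher and 8 not called (median 6.04, 4.44 with genes without reads at 3 counts), and 1 was lower against rods. The AMPA subunit Gria1 stood at 134 and 157 CPM in bipolars, 0.0351 and 0 in rods and 0.0464 and 14 in cones. Grid1, a delta receptor, stood at 39.1 and 44 CPM in bipolars, at no reads in rods and at 0.0927 and 0.178 in cones. Of 22 GABA and glycine receptor genes 16 were higher and 6 not called (median 5.39), with 10 higher without bipolar replicate 1 and 9 without replicate 2. Gabrr1, a rho subunit of the GABA receptors on bipolar terminals, stood at 329 and 331 CPM in bipolars, 0.949 and 0 in rods and 1.34 and 10.6 in cones (9.20 ± 1.82). Its bipolar libraries lay far above the photoreceptor libraries. Against cones 9 of the glutamate and 6 of the GABA and glycine receptor genes were higher, beside 11.7% over all genes. Of 10 amacrine genes 5 were higher in bipolars, 3 without bipolar replicate 1 and 1 without replicate 2. The amacrine gene Gad1 stood at 21.8 and 118 CPM in bipolars, and Slc18a3 had no reads in rods and cones; the part of amacrine RNA in the receptor genes was not tested.

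Against the mean of rods and cones, surface and guidance genes were higher in bipolars far more often than lower. The counts were 14 higher and 1 lower of 21 neurexin, teneurin and latrophilin genes, 18 and 4 of 34 leucine-rich repeat genes, and 19 and 3 of 28 cadherins. They were 22 and 5 of 39 immunoglobulin superfamily genes and 33 and 2 of 51 semaphorin, ephrin, slit and netrin genes, beside 20.6% higher and 12.8% lower over all genes. Without bipolar replicate 2 the higher cadherins numbered 12 and the immunoglobulin genes 14, and the guidance genes numbered 19 without either bipolar library. List medians were 4.90, 4.88, 6.80, 2.54 and 4.25 in the same order. Called against both rods and cones were 10 and 0, 7 and 3, 10 and 2, 7 and 5, and 17 and 1, again in that order. Over all genes 8.71% were higher than both and 7.3% lower than both. Ptprd, a receptor phosphatase of synapse formation, stood at 1575 and 1645 CPM in bipolars, 9.45 and 0.352 in rods and 17.4 and 54 in cones (7.74 ± 1.03). Cdh9, a type II cadherin, stood at 101 and 102 CPM in bipolars, at no reads in rods and at 1.28 and 0.586 in cones. Sema5b, a transmembrane semaphorin, stood at 188 and 231 CPM in bipolars, at no reads in rods and at 9.07 and 4.46 in cones. Epha4, an ephrin receptor, stood at 142 and 151 CPM in bipolars, 0 and 0.0252 in rods and 0.858 and 1.33 in cones. In each of these 4 genes the bipolar libraries lay above all photoreceptor libraries. Lrrtm4, a synaptic leucine-rich repeat protein, stood at 31.3 and 24.1 CPM in bipolars and averaged 297 ± 114 in rod bipolars and 5.62 ± 1.48 in cone bipolars. The lower genes included Pcdh15 (-4.01 ± 0.19) and Cdhr1 (-3.38 ± 0.14), photoreceptor cadherins, and Jam2 (-2.94 ± 0.13), a junctional adhesion molecule.

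Of 29 Wnt pathway genes 11 were higher and 2 lower (median 3.07, 2.05 with genes without reads at 3 counts), beside 20.6% and 12.8% over all genes. Against both rods and cones 6 were higher, beside 8.71% over all genes. Wnt5b stood at 8.87 and 8.63 CPM in bipolars and had no reads in rods or cones, which puts bipolars at least 199-fold above rods and at least 240.26-fold above cones. Wnt5a stood at 14 and 13.3 CPM in bipolars, 16.3 and 0.0503 in rods and 0.0927 and 0.663 in cones and was not called (adjusted p = 0.0597); the rod libraries overlapped the bipolar ones. In rod bipolars Wnt5a averaged 143 ± 4.64 CPM and Wnt5b 34.3 ± 1.6, and in cone bipolars 4.83 ± 0.00108 and 1.05 ± 1.17. Ryk, a Wnt receptor, stood at 39.1 and 42.8 CPM in bipolars, 95.3 and 107 in rods and 51.4 and 56.8 in cones. It was lower than in rods (-1.30 ± 0.28) and not called against the mean (-0.85 ± 0.24). Prickle2, a planar polarity protein, stood at 248 and 257 CPM in bipolars and 176 and 119.84 in cones but 0 and 0.101 in rods. Dkk3 and Sfrp1, which Müller glia also express, were among the higher genes (Dkk3 not without bipolar replicate 2), and 8 of 12 Müller genes were higher in bipolars, 5 without bipolar replicate 1 or cone replicate 2 and 4 without bipolar replicate 2. Glul, the glutamine synthetase of Müller glia, stood at 413 and 479 CPM in bipolars, 122 and 132 in rods and 94.8 and 55.1 in cones. The part of Müller RNA in the surface and Wnt genes was not tested.

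Genes of excitability and of the axon were mostly higher against the mean, beside 20.6% higher and 12.8% lower over all genes. Of 28 potassium and HCN channel genes 19 were higher and 2 lower (median 5.46); Kcnj9, an inward rectifier, stood at 52.3 and 57.6 CPM in bipolars, at no reads in rods and at 0.0696 and 4.72 in cones. Of 6 sodium channel genes 5 were higher, but none was without either bipolar library or cone replicate 1. Of 26 cytoskeletal genes 15 were higher and 5 lower. Higher and lower against both rods and cones were 6 and 2 potassium and HCN genes and 7 and 3 cytoskeletal genes. Over all genes these shares were 8.71% and 7.3%. No sodium channel gene was called against cones. Mapt, the axonal microtubule protein tau, stood at 520.12 and 487 CPM in bipolars, 0.878 and 0.377 in rods and 3.57 and 19.2 in cones (7.84 ± 1.13), whereas Map2 (-1.99 ± 0.22) and Map1b (-1.95 ± 0.24) were lower. Map2 stood at 151 and 174 CPM in bipolars, 836 and 711 in rods and 592 and 489 in cones. The microtubule-associated proteins thus differed in direction among themselves.

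Genes of energy metabolism were counted by pathway, beside 20.6% higher and 12.8% lower over all genes. Of 22 glycolysis and lactate genes 8 were higher and 2 lower, and 5 were higher without either bipolar library. Pfkp, a phosphofructokinase, stood at 770 and 872 CPM in bipolars, 135 and 151 in rods and 82.8 and 97.2 in cones (2.85 ± 0.20), and Tpi1 was higher by 2.56 ± 0.21. Hk2, the hexokinase of photoreceptors, stood at 10.04 and 22.9 CPM in bipolars, 48.6 and 47.5 in rods and 349 and 385 in cones (-3.13 ± 0.30). Of 39 respiratory chain genes 13 were lower and none higher, with a median of -0.73; with plain library totals 6 were lower and the median was -0.25, beside 0.66 over all genes. Cox6c stood at 773 and 740.23 CPM in bipolars, 2988 and 5254 in rods and 1621 and 1488 in cones. In the nucleus, 10 of 21 splicing regulators were higher and 1, Msi1, was lower, at 77.7 and 88.6 CPM in bipolars, 464 and 454 in rods and 363 and 334 in cones (-2.27 ± 0.11). Casz1, a zinc finger factor of photoreceptors, was lower (-7.62 ± 0.34), as was Hmgn1, a nucleosome-binding protein (-2.46 ± 0.19), while 6 of 23 chromatin genes were higher and 5 lower, with the higher share near that over all genes.

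**Figure D4:**
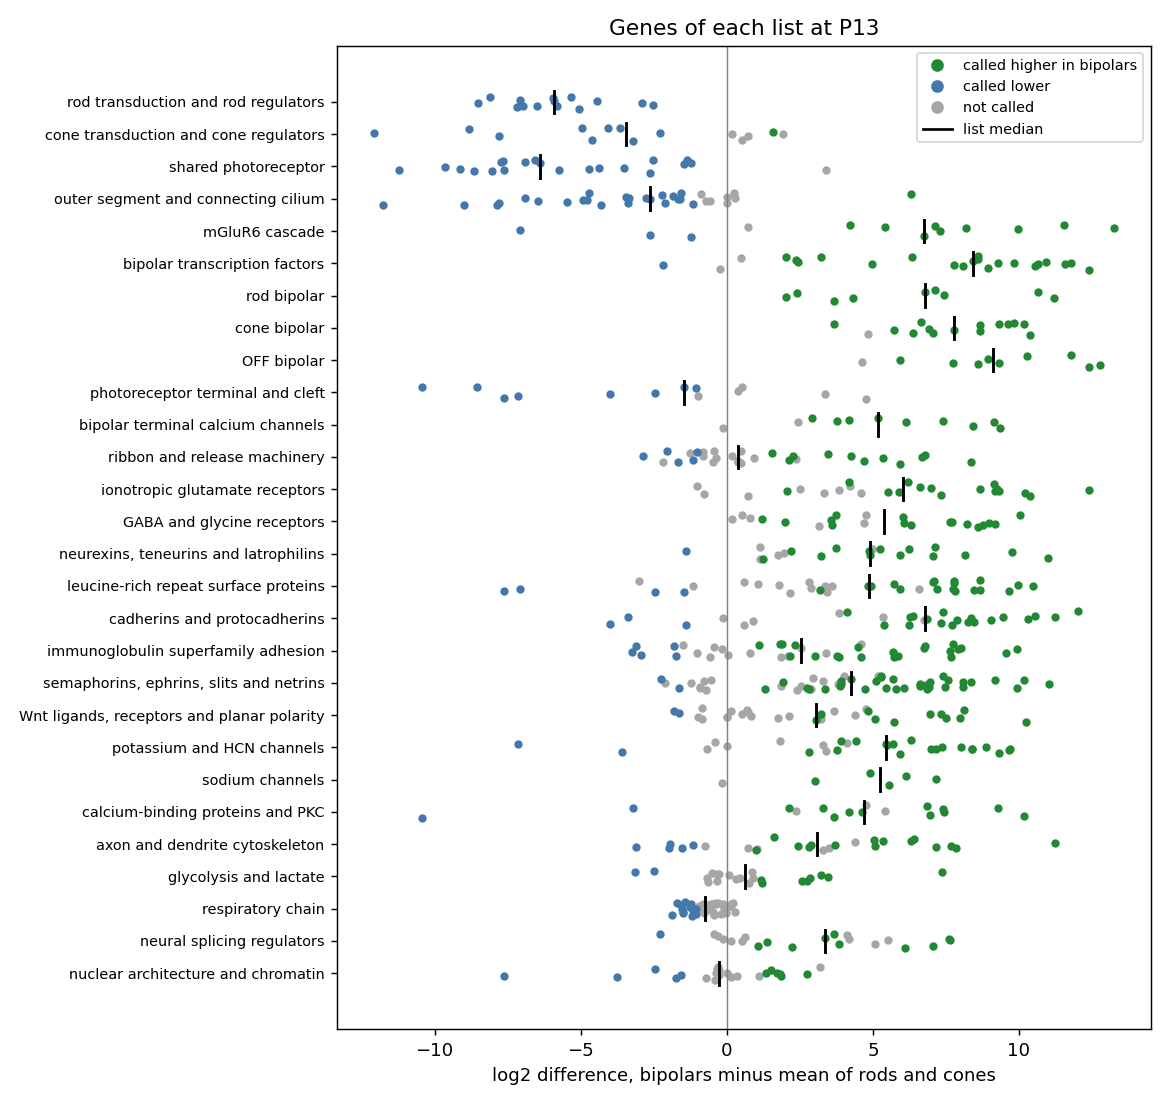
Log2 difference of bipolars from the mean of rods and cones (x axis) for the genes of 28 lists (y axis); each point is 1 gene, green called higher, blue called lower and grey not called, and black bars are list medians. Medians of rod, shared photoreceptor and outer segment genes lie left of 0, and those of bipolar and receptor genes right of 0.

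Genes with the largest differences were taken among those whose bipolar libraries lay clear of all photoreceptor libraries. Besides Gpr179, Nxph1, Fezf1 and the kainate receptor auxiliary gene Neto1, they included St18, a zinc finger factor, at 449.86 and 429 CPM in bipolars, 0 and 0.0252 in rods and 0 and 24.9 in cones. Hs3st5, a heparan sulfate sulfotransferase, stood at 38.3 and 40.8 CPM and Pde9a, a cGMP phosphodiesterase, at 35.4 and 42.7, with no reads in rods or cones for either. Ifit2, an interferon-induced gene, stood at 44.4 and 37.4 CPM in bipolars with no reads in rods or cones, and averaged 3.93 ± 2.49 in rod bipolars and 6.39 ± 2.86 in cone bipolars. At the other end Cldn7, a tight junction claudin, had no reads in bipolars and stood at 43.6 and 60.2 CPM in rods and 24.4 and 27.2 in cones, so that it was at least 714-fold higher in rods and at least 355-fold higher in cones. Akr1b8, an aldo-keto reductase, likewise had no reads in bipolars, with 10.2 and 6.77 CPM in rods and 23.1 and 18.1 in cones. Doc2b, a calcium sensor of release, stood at 0.873 and 0 CPM in bipolars, 180.4 and 113 in rods and 153 and 162 in cones.

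Some genes differed between bipolars and rods in another way than between bipolars and cones. Of the 72 genes called in opposite directions, 59 were higher than in rods and lower than in cones, and 13 the reverse. Fam19a3, a secreted chemokine-like protein, stood at 121 and 89.5 CPM in bipolars, at no reads in rods and at 787 and 668 in cones. Its bipolar level was at least 2397-fold above rods and -2.80 log2 units from cones. Ralyl, an RNA-binding protein, stood at 23.5 and 33.4 CPM in bipolars, at no reads in rods and at 210.09 and 95.7 in cones, and Krt222 at 14.7 and 13.4, no reads and 53.5 and 53.5. In all 3 genes bipolars lay between rods and cones with no overlap. Genes higher than in rods but not called against cones included Cabp5, a calcium-binding protein used as a bipolar marker. It stood at 497 and 404 CPM in bipolars, 304 and 262 in cones and 0.0703 and 0 in rods, so that it was called against rods (14.20 ± 0.72) and not against cones (0.67 ± 0.72, adjusted p = 0.543). The teneurin Tenm4 stood at 86.3 and 111 CPM in bipolars, 63.3 and 72 in cones and at no reads in rods.

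The same difference was set beside P7 and P30. Between P7 and P13 it changed in 408 genes (3.04%), toward bipolars in 241 (1.8%) and toward photoreceptors in 167 (1.25%), and between P13 and P30 in 221 genes (1.65%), of which 162 (1.21%) moved toward bipolars and 59 (0.44%) toward photoreceptors. These counts and their direction depend on single libraries. From P7 to P13, 783 genes moved toward bipolars and 286 toward photoreceptors without rod replicate 1, 386 and 238 without rod replicate 2, 99 and 101 without bipolar replicate 1, and 74 and 30 without bipolar replicate 2. From P13 to P30 the counts were 388 and 487, 226 and 127, 96 and 16, and 35 and 6 in the same order, so that the direction turned without rod replicate 1. With plain library totals the split from P7 to P13 was 446 and 62. Müller markers summed to 6008 to 9459 CPM in bipolars at P30, beside 995 to 1325 at P13. Microglial markers summed to 221 to 501 there and vascular markers to 380 to 488, also above P13, while pigment epithelium markers fell to 2.71 to 4.21. Mitochondrial transcripts took 38.7 and 28.6% of reads in cones at P30. The part of these in the changes with age was not tested. The median of the bipolar transcription factors was 5.46 at P7, 8.44 at P13 and 7.40 at P30, and with genes without reads at 3 counts it was 4.68, 6.26 and 5.60. None of these 23 genes was called as changed in either interval. The median of cone bipolar genes was 3.98, 7.77 and 7.64 (3.44, 6.47 and 6.63 at 3 counts), with 2 of 15, Kcng4 and Cck, called toward bipolars from P7 to P13 and none after. OFF bipolar genes stood at 8.44, 9.12 and 9.01 (7.05, 6.43 and 6.08 at 3 counts), and none was called as changed. Rod genes stood at -4.73, -5.92 and -5.64, with 2 of 14 called toward bipolars and 3 toward photoreceptors from P7 to P13 and 2 toward bipolars from P13 to P30, beside medians of 0.12, 0.18 and 0.13 over all genes. Egflam, the cleft gene, moved toward photoreceptors from P7 to P13 by -3.16 ± 0.47 (adjusted p = 0.0016) and back by 2.59 ± 0.47 to P30 (adjusted p = 0.0127). Its mean was 11.3 ± 2.13 CPM in bipolars at P7, 1.55 ± 0.96 at P13 and 5.83 ± 0.397 at P30. In rods it was 685 ± 126, 666 ± 130.36 and 309 ± 22.9, and in cones 319.51 ± 28.7, 408 ± 3.97 and 436 ± 174. Both changes were lost with voom on recovered reads, and that to P30 also without bipolar replicate 2. Tenm4 moved toward bipolars from P7 to P13 by 8.71 ± 0.40 (adjusted p = 9.74e-09), while its mean in bipolars went from 12.9 ± 1.52 to 98.7 ± 17.6 CPM and in rods from 44.1 ± 13.7 CPM to no reads. Rods without reads enter at the floor value of the deposited scale, so the size of this change depends on that floor.

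**Figure D5:**
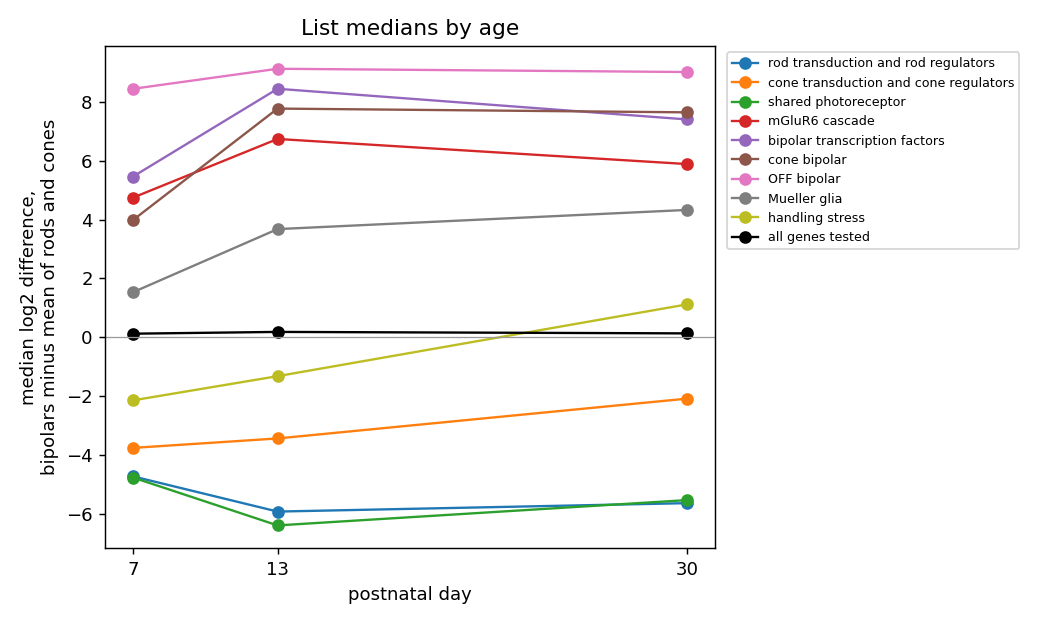
Median log2 difference of bipolars from the mean of rods and cones (y axis) against postnatal day (x axis) for 9 lists and all genes tested; points are medians over the genes of a list. Bipolar lists lie above 0 and photoreceptor lists below 0 at each age, all genes stay between 0.12 and 0.18, and the handling stress list goes from -2.15 to 1.12.

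Markers of other cells were counted for all lists. Beside the Müller and amacrine genes, 2 of 8 microglial, 3 of 7 vascular and 3 of 4 pigment epithelium genes were higher in bipolars, 1 ganglion gene was higher and 1 lower of 7, and none of 4 horizontal cell genes was called. Over all genes 20.6% were higher and 12.8% lower, so that the microglial and ganglion counts lay near the share over all genes. Microglial markers summed to 46.7 to 52.0 CPM in bipolars, 5.17 to 30.2 in cones and 5.01 to 11.9 in rods. Vascular markers summed to 81.6 to 93.6 CPM in bipolars, 1.35 to 19.5 in cones and 25.1 to 36.9 in rods, most of it Kdr, at 62.1 and 87.3 CPM in bipolars. Of 12 handling stress genes 5 were lower in bipolars, and the list summed to 218 to 468 CPM in bipolars, 561 to 825 in cones and 658 to 742 in rods. Nr4a1, an immediate early gene, stood at 8.92 and 10.03 CPM in bipolars, 35.5 and 26.1 in rods and 115 and 106 in cones. The part of these cells and of handling in the differences above was not tested.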

How the data were processed

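Cells were collected after sorting, and their RNA was isolated, linearly amplified and made into TruSeq libraries, per the labels' protocols. The submitters' processing notes name STAR, edgeR and the build GRCm38 (mm10); the sources used here name no counting tool or annotation. Values deposited for 13812 genes are log2 CPM, scaled by the authors' effective library sizes; a gene with no reads has the floor value -7.10. Taking off that floor gave whole reads (within 0.01) for 100.0% of values. GENCODE M21 named 13785 IDs, and 27 without a name were left out. Tests were run with limma 3.58.1 in R 4.3.3 on the log2 values of all 22 libraries (11 groups, 11 residual and 4.27 prior degrees of freedom, intensity trend). The procedure was run on simulated counts with the same dispersion in all genes and groups. That run does not cover the uneven spread of the real replicates. A library's value is given as CPM, and a fold against a group with no reads uses 3 counts over that group as its floor: 0.0440 CPM in rods, 0.0364 in cones and 0.0727 in bipolars; bounds cover counting error only.

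The comparison and the 37 gene lists (714 genes, 671 in the table, 666 tested) were chosen with earlier results of these data known. Named genes were the 12 largest rises and 12 largest falls with libraries that do not overlap and a mean log2 CPM of at least 3, up to 8 members per list with called ones first, 5 genes called in opposite directions against rods and cones, and a fixed set. A further 18 genes were chosen after their values were seen: Gnao1, Rgs7, Gnat1, Gnat2, Gnb1, Gnb3, Nrl, Neurod1, Rbp3, Cplx3, Cplx4, Slc17a7, Gabrr2, Map2, Map1b, Cdhr1, Jam2 and Six6. Some genes that these rules name are not reported here. Genes sharing reads with near-identical copies or overlapping genes are uncertain.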

Additional observations from a re-analysis of the deposited data

Results flagged for a closer look

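The difference between bipolars and the mean of rods and cones changed with age, by the interaction test of the same model, in 408 genes between P7 and P13 and in 221 between P13 and P30. Among the named genes, those below were called in one of these tests; values are changes of the difference on the log2 scale, positive toward bipolars, and no cause was tested. Of the 30 named genes called between P7 and P13, 7 kept their call under every alternative run (Cdhr1, Hk2, Jam2, Kcnk3, Krt222, Slc17a7 and Tenm4), and of the 18 called between P13 and P30 only Msi1 did. From P7 to P13 the difference of photoreceptor genes moved by -2.18 in Grk1, -1.85 in Pde6b, -2.18 in Pdc, -2.35 in Impg2, -2.99 in Rp1, -2.09 in Rpgrip1, 2.17 in Gngt1, 4.10 in Thrb, 1.12 in Cdhr1 and -1.35 in Gnb1. Synaptic genes moved by -3.16 in Egflam, 1.77 in Pcdh15, 2.85 in Cacnb2, 1.32 in Cplx3, 2.65 in Cplx4 and 1.58 in Slc17a7. The G protein genes Gnao1 and Gnb3 moved by 1.34 and 1.17. Channels moved by 6.97 in Kcng4 and 6.17 in Kcnk3, and the neuropeptide gene Cck by 7.36. Surface genes moved by 8.71 in Tenm4, 6.0 in Sema4a and -1.64 in Jam2. The hexokinase Hk2 moved by -3.16, Pfkm by 2.04, Casz1 by -2.15, Hmgn1 by -1.58, Gm4792 by 7.24 and Krt222 by 6.84. Tenm4, Krt222, Kcng4 and Cck had no reads in rods at P13, and Cck none in cones. A group without reads enters at the floor value, so the sizes of these changes depend on that floor.

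From P13 to P30 the difference of cone genes moved by 8.51 in Arr3, 5.41 in Pde6h and 4.58 in Opn1sw. Other photoreceptor genes moved by 1.73 in Gngt1, 2.23 in Aipl1, 1.34 in Prom1 and 1.39 in Rbp3. The cleft genes Egflam and Lrit1 moved by 2.59 and 1.40. Gabrr3 moved by -5.39, Tenm4 by -2.74, Adgrl2 by 2.30, Kcnk3 by -3.60 and Fam19a3 by -4.14. Msi1 moved by 1.24, Casz1 by 2.60, the Müller gene Glul by 1.77 and the immediate early gene Nr4a1 by 2.61. Summed Müller markers in bipolars ran from 995 to 1325 CPM at P13 and from 6008 to 9459 at P30. The bipolar mean of Arr3 was 0.242 ± 0.343 CPM at P13 and 52 ± 6.05 at P30 (SD, n = 2), and the cone mean 5999 ± 2068 and 11516 ± 1867. Opn1sw averaged 1.62 ± 1.68 and 48.7 ± 4.6 CPM in bipolars at the same ages. At P30 rods averaged 32.9 ± 8.17 CPM for Arr3 and 20.7 ± 9.9 for Opn1sw, so that the bipolar means lay above the rod means and far below the cone means.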

How the results depend on the processing

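Of the 274 named genes called against the mean of rods and cones, 180 kept their call under every alternative run and none reversed in any. Counts that moved by more than 1.5 times were as follows. With plain library totals, 1044 genes were lower against the mean, 1247 lower against rods, 2473 higher and 891 lower against cones, and 1795 higher and 593 lower against both, and from P7 to P13 446 moved toward bipolars and 62 toward photoreceptors. With log2(CPM + 1) 1887 were higher against both, with voom on recovered reads (chosen after seeing the data) 1834, and with the 6 libraries alone 750. The 6 libraries alone gave 1959 calls against cones (930 higher). The change from P7 to P13 had 876 calls with log2(CPM + 1) (586 toward bipolars, 290 toward photoreceptors) and 907 with array quality weights (602 and 305), and toward photoreceptors 102 without the intensity trend and 89 with voom. That from P13 to P30 had 657 with log2(CPM + 1) (499 and 158) and 38 toward photoreceptors with voom. Higher and lower genes called against both split 1834 and 864 with voom, against 1168 and 978. Leaving out 1 library at a time gave 2916 to 5150 calls against the mean (1619 to 3308 higher), 1783 to 3369 against cones, 1332 to 2309 against both (621 to 1336 higher), 104 to 1069 for the change from P7 to P13 and 41 to 875 for that from P13 to P30; a lone library left in a group was assumed to vary like the other groups. Whether the replicate numbers pair the samples is not said. Correlations across genes of same-numbered differences were 0.0012, 0.0060 and 0.0321 among the rods, cones and bipolars at P13. That of bipolars with cone bipolars at P13 was 0.193, and 1 difference per group cannot exclude pairing. With the replicate block 2733 genes were higher and 1715 lower against the mean. Count models were planned and not run, since the deposited values are log2 CPM. The bipolar libraries were the shallowest of the 6, and 3 counts over that group is 0.0727 CPM; levels of this order rest on single reads.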
